A study of Mus musculus with 4 samples.

Results

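The signal transducers and activators of transcription (STATs) are latent transcription factors that Janus kinases (JAKs) phosphorylate at cytokine receptors. This report follows 8 genes of these families other than the deleted Stat5a and Stat5b: Stat2, Stat3, Stat4 and Stat6, and the kinase genes Jak1, Jak2, Jak3 and Tyk2. They were chosen by symbol, and all 8 were found once each among the 31053 genes of the deposited matrices. In blood progenitors, erythropoietin and the interleukin-3 family signal mainly through JAK2 and STAT5, the common gamma chain receptors use JAK1 and JAK3, the gp130 receptors use JAK1 and STAT3, and type I interferon uses JAK1, TYK2 and a complex of STAT2 with IRF9. The question put to the data is whether transcripts of the remaining family members are higher where Stat5a and Stat5b are lost.

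The data are 4 droplet single-cell RNA libraries from mouse bone marrow, 1 per group. The KLS sort, which took stem and progenitor cells that lack lineage antigens and carry c-Kit and Sca-1, used mice of 8 to 12 weeks. The stromal sort, called MSC in the labels, took cells negative for CD45, negative or low for Ter119, negative for CD71, and positive for Sca-1 and CD140a, from mice of 6 to 8 weeks. The control genotype was Vav1-Cre/+STAT5ab+/+ and the STAT5 knockout (STAT5 KO) genotype was Vav1-Cre/+STAT5abfl/fl, so all 4 groups carry the Cre transgene. The Vav1 promoter drives Cre in blood cells, and stromal cells of the knockout mice therefore keep the floxed genes unless Cre acted outside blood. The labels name 4 mice for the KLS sort and identify no single mouse, so each library is 1 sample. A single library stands for each group, so nothing was tested: every interval below is a 95% interval of counting error only and says nothing about the spread between mice. PCR and preparation differences are not covered by it.

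Levels are given as CPM, the unique molecular identifiers (UMIs) of a gene per 1000000 UMIs summed over the cells compared. After filtering, 3085 KLS control cells with 51139373 UMIs and 6726 KLS STAT5 KO cells with 76389354 UMIs were kept, and 577 MSC control cells with 1752793 UMIs and 374 MSC STAT5 KO cells with 1199251 UMIs. Libraries shared cell barcodes: of the cells that passed the other filters, 10.7% (369) of KLS control and 3.74% (261) of KLS STAT5 KO carried a barcode that held more UMIs in another library. The same was true of 5.25% (32) of the control and 2.60% (10) of the STAT5 KO cells of the stromal sort, and all these were left out. The sorts carried their defining transcripts. In KLS control and KLS STAT5 KO, Kit stood at 210.1 and 178 CPM and Ly6a, which encodes Sca-1, at 65.2 and 48.8 CPM. Ptprc, which encodes CD45, stood at 153 CPM in KLS control and 154 CPM in KLS STAT5 KO but at 3.99 and 5.84 CPM in the MSC libraries, and Pdgfra, which encodes CD140a, had 0 UMIs in both KLS libraries and stood at 287 and 236 CPM in the MSC libraries. The 10 stromal markers summed to 39.1 and 32.3 CPM in the KLS libraries. Hemoglobin-rich cells remained in the stromal sort, at 19.4% of its control cells and 21.9% of its STAT5 KO cells, but the 5 erythroid markers summed to 31125 CPM in its control and 14372 CPM in its STAT5 KO library. In cells that passed the stromal marker rule these markers summed to 140.1 and 140.0 CPM. In the KLS libraries they summed to 41.0 and 69.4 CPM.

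The deleted genes were measured first. Stat5a stood at 68.5 CPM (66.3 to 70.8) in KLS control and 6.74 CPM (6.17 to 7.35) in KLS STAT5 KO, and Stat5b at 60.8 CPM (58.7 to 63.0) and 4.49 CPM (4.03 to 4.99). Both were far lower in the knockout library, at 9.84% (8.95 to 10.8%) and 7.38% (6.58 to 8.25%) of control.

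None of the 8 other family genes was higher in STAT5 KO KLS cells by the size rule of 1.3-fold, and none was lower by it. With a pseudocount of 1 CPM, 3.61% of the 13976 genes with at least 20 UMIs were at least 1.3-fold higher and 7.04% at least 1.3-fold lower, so 0 of 8 in either direction lies near the background. The median log2 ratio of STAT5 KO to control was -0.097 over the 8 genes and -0.013 over all genes tested. Stat3 alone had a ratio above 0, and the other 7 lay below it. The highest upper bound of a counting interval among the 8 was 105% of the control level, that of Stat3, so a rise of the size of the fold rule lay outside counting error in this pair of libraries.

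**Figure D1:**
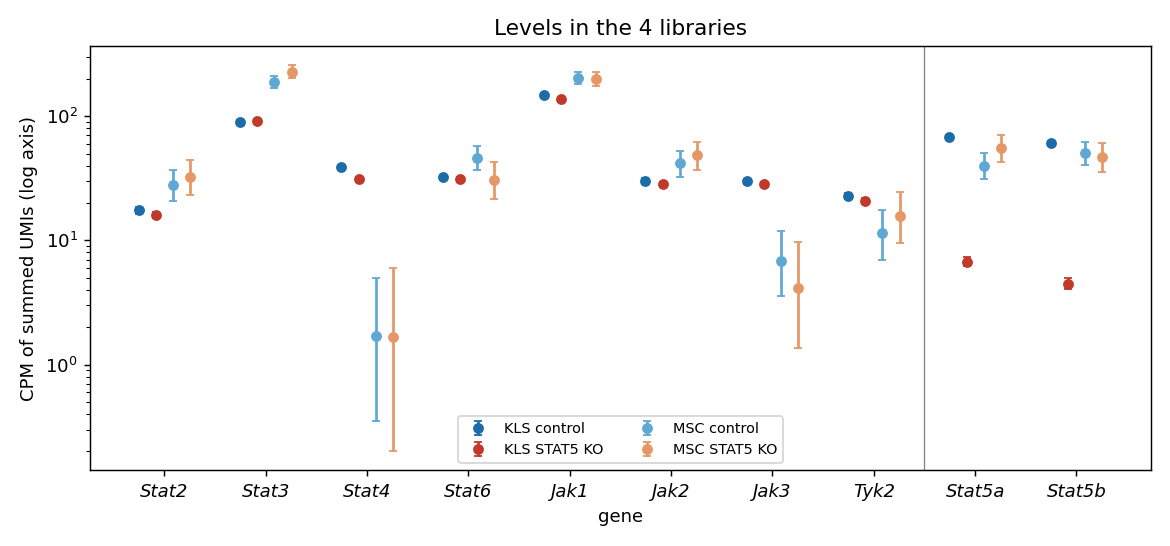
Level of each gene in the 4 libraries, as CPM of summed UMIs on a log axis, with 95% counting intervals; Stat5a and Stat5b stand to the right of the line. The KLS points of the 8 other genes lie close together in the 2 genotypes, whereas Stat5a goes from 68.5 to 6.74 CPM, and Stat4 and Jak3 are far lower in the MSC libraries than in the KLS libraries.

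Among the STAT genes, Stat3 encodes the factor of gp130 and granulocyte colony-stimulating factor receptor signaling. It stood at 90.4 CPM (87.9 to 93.1) in KLS control and 91.9 CPM (89.7 to 94.0) in KLS STAT5 KO, a log2 ratio of 0.022 (-0.031 to 0.076). Summed over all cells, the 2 libraries did not differ in Stat3 beyond counting error, and 43.3% of tested genes had a higher ratio. The mix of progenitors differed between the libraries, and the ratio after weighting for it is given below. Stat3 (chromosome 11, 100885098 to 100939540, minus strand, GRCm38) lies tail to tail with Stat5a (chromosome 11, 100859351 to 100885169, plus strand), and the 2 annotations share 72 bases at their 3′ ends. The strand rule of the counting is not given in the sources used here, so a read in those bases could have been counted for either gene.

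Stat4, the factor activated by interleukin-12, differed most of the 8. It stood at 39.0 CPM (37.3 to 40.7) in KLS control and 31.2 CPM (30.0 to 32.5) in KLS STAT5 KO, a log2 ratio of -0.32 (-0.41 to -0.23), or 80.2% of control (75.5 to 85.1%). Its level was lower in the knockout beyond counting error, but 10.6% of all tested genes had a lower ratio still. Stat6, the factor of interleukin-4 and interleukin-13, stood at 32.3 CPM (30.7 to 33.9) and 30.9 CPM (29.7 to 32.2), a log2 ratio of -0.061 (-0.15 to 0.031). Stat2, which pairs with IRF9 after type I interferon, stood at 17.5 CPM (16.3 to 18.6) and 16.0 CPM (15.2 to 16.96), a log2 ratio of -0.12 (-0.25 to 0.0032). The intervals of Stat6 and Stat2 include 0.

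Among the kinases, Jak2 is the one attached to the erythropoietin receptor upstream of STAT5. It stood at 30.0 CPM (28.5 to 31.5) in KLS control and 28.2 CPM (27.0 to 29.4) in KLS STAT5 KO, a log2 ratio of -0.088 (-0.18 to 0.0075). Jak3, which serves the common gamma chain, stood at 29.9 CPM (28.4 to 31.4) and 28.3 CPM (27.2 to 29.6), a log2 ratio of -0.077 (-0.17 to 0.018). Neither differed beyond counting error. Jak1, shared by gp130, interferon and gamma chain receptors, stood at 149 CPM (146 to 153) and 138 CPM (136 to 141), a log2 ratio of -0.11 (-0.15 to -0.067). Tyk2, a kinase of the interferon and interleukin-12 receptors, stood at 22.7 CPM (21.4 to 24.1) and 20.9 CPM (19.9 to 22.0), a log2 ratio of -0.12 (-0.23 to -0.0072). Jak1 stood at 92.7% and Tyk2 at 92.2% of control, lower beyond counting error and inside the fold rule.

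**Figure D2:**
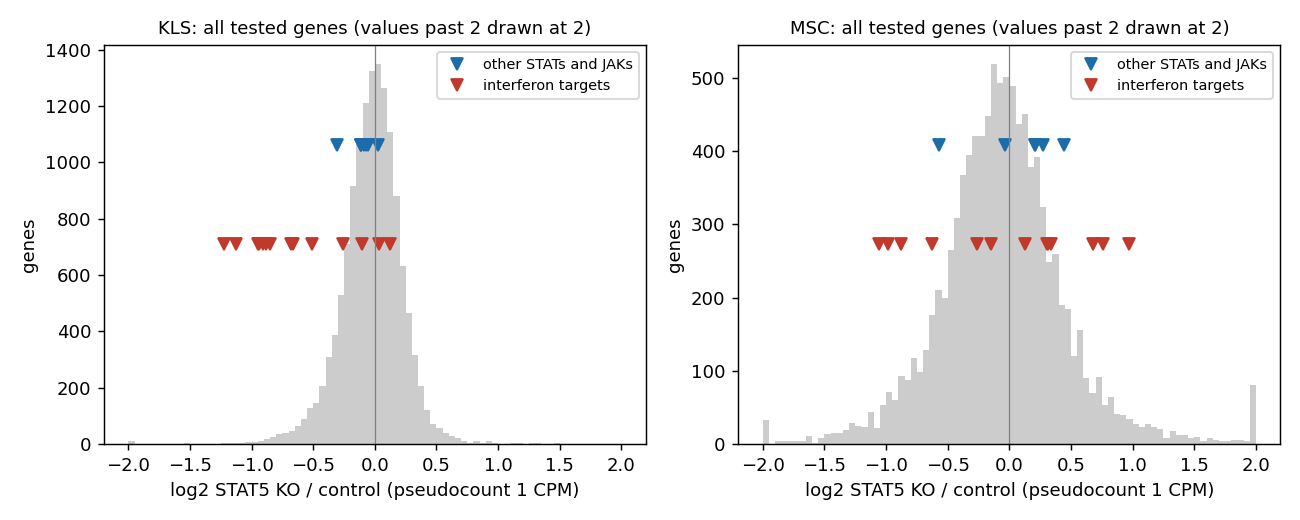
Histograms of the log2 ratio of STAT5 KO to control over all genes with at least 20 UMIs, in KLS cells (left) and MSC cells (right). The other STAT and JAK genes (blue) and the interferon targets (red) are marked above their values. The target list was chosen with earlier results of these data known. In KLS cells the 8 family genes sit between -0.31 and 0.022, inside the bulk of the genes, and 10 of 14 interferon targets sit at the lower edge.

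The mix of progenitors differed between the KLS libraries, so the genes were measured again within gates set by lineage transcripts. Each cell was thinned to 4000 UMIs, and gates were drawn on Dntt (the lymphoid gene for terminal transferase), Pf4 (platelet factor 4), Klf1 plus Gata1 (erythroid factors), the granule protein genes Mpo, Elane, Prtn3 and Ctsg, and a stem pair gate that asked for at least 2 of Hlf, Mecom and Procr. Shares are of all kept cells. Stem pair cells made up 18.2% of KLS control and 9.25% of KLS STAT5 KO cells (562 and 622 cells), granule cells 5.25% and 12.0% (162 and 806), and Dntt cells 28.1% and 30.0% (866 and 2018). The Pf4 gate held 41 and 145 cells and the Klf1/Gata1 gate 31 and 82 cells. Cells in no gate numbered 1210 and 2077, cells in more than 1 gate 189 and 687, and cells too shallow to gate 24 and 289. After the knockout cells were given the gate mix of the control library by weighting, log2 ratios were 0.10 for Stat3, -0.22 for Stat4 and -0.048 for Jak1, and 0 of 8 genes passed the fold rule in either direction. These values lie above the upper bounds of the unweighted intervals, which were 0.076 for Stat3, -0.23 for Stat4 and -0.067 for Jak1.

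In the control library the 8 genes differed in how they were spread over the gates. Stat4 went down in order from the stem pair gate at 48.9 CPM (44.0 to 54.2) through the Dntt gate at 40.0 CPM (36.8 to 43.4), the granule gate at 28.6 CPM (23.5 to 34.5) and the Pf4 gate at 20.7 CPM (12.1 to 33.2) to the Klf1/Gata1 gate at 4.11 CPM (0.848 to 12.0). The granule and Pf4 gates overlapped in their intervals, while the Klf1/Gata1 gate, with 3 Stat4 UMIs, lay below the granule gate. Stat3 stood at 109 CPM (102 to 117) in the stem pair gate, 77.3 CPM (72.8 to 81.9) in the Dntt gate, 71.8 CPM (63.5 to 80.9) in the granule gate, 68.3 CPM (51.6 to 88.7) in the Pf4 gate and 50.7 CPM (35.7 to 69.9) in the Klf1/Gata1 gate. Stat3 was highest in the stem pair gate of these 5, and the intervals of the Dntt, granule and Pf4 gates overlapped.

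Jak2 ran the other way. It stood at 54.9 CPM (40.0 to 73.4) in the Pf4 gate and 46.6 CPM (32.3 to 65.2) in the Klf1/Gata1 gate of the control library, against 37.4 CPM (33.1 to 42.0) in the stem pair gate, 24.6 CPM (19.9 to 30.2) in the granule gate and 23.0 CPM (20.6 to 25.6) in the Dntt gate. The Pf4 and Klf1/Gata1 gates overlapped each other and lay above the Dntt and granule gates. In the STAT5 KO library Jak2 was again highest in the Pf4 gate, at 52.6 CPM (42.7 to 64.2), followed by the Klf1/Gata1 gate at 37.9 CPM (28.2 to 49.8), the stem pair gate at 35.4 CPM (30.7 to 40.7), the Dntt gate at 24.0 CPM (22.1 to 26.1) and the granule gate at 21.1 CPM (18.6 to 23.8). Jak1 was highest in the stem pair gate at 178 CPM (168 to 188) and stood at 129.9 CPM (124 to 136) in the Dntt gate, 146 CPM (121 to 175) in the Pf4 gate, whose interval overlaps that of the stem pair gate, 113 CPM (103 to 125) in the granule gate and 93.3 CPM (72.4 to 118) in the Klf1/Gata1 gate. Jak3 ranged from 16.5 CPM (8.50 to 28.7) in the Klf1/Gata1 gate to 35.0 CPM (30.9 to 39.6) in the stem pair gate. Stat2 ranged from 9.60 CPM (Klf1/Gata1) to 19.8 CPM (stem pair), Stat6 from 20.6 CPM to 33.8 CPM in the same gates, and Tyk2 from 21.9 CPM to 25.4 CPM. For Stat2, Stat6 and Tyk2 the intervals of all 5 gates overlapped.

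**Figure D3:**
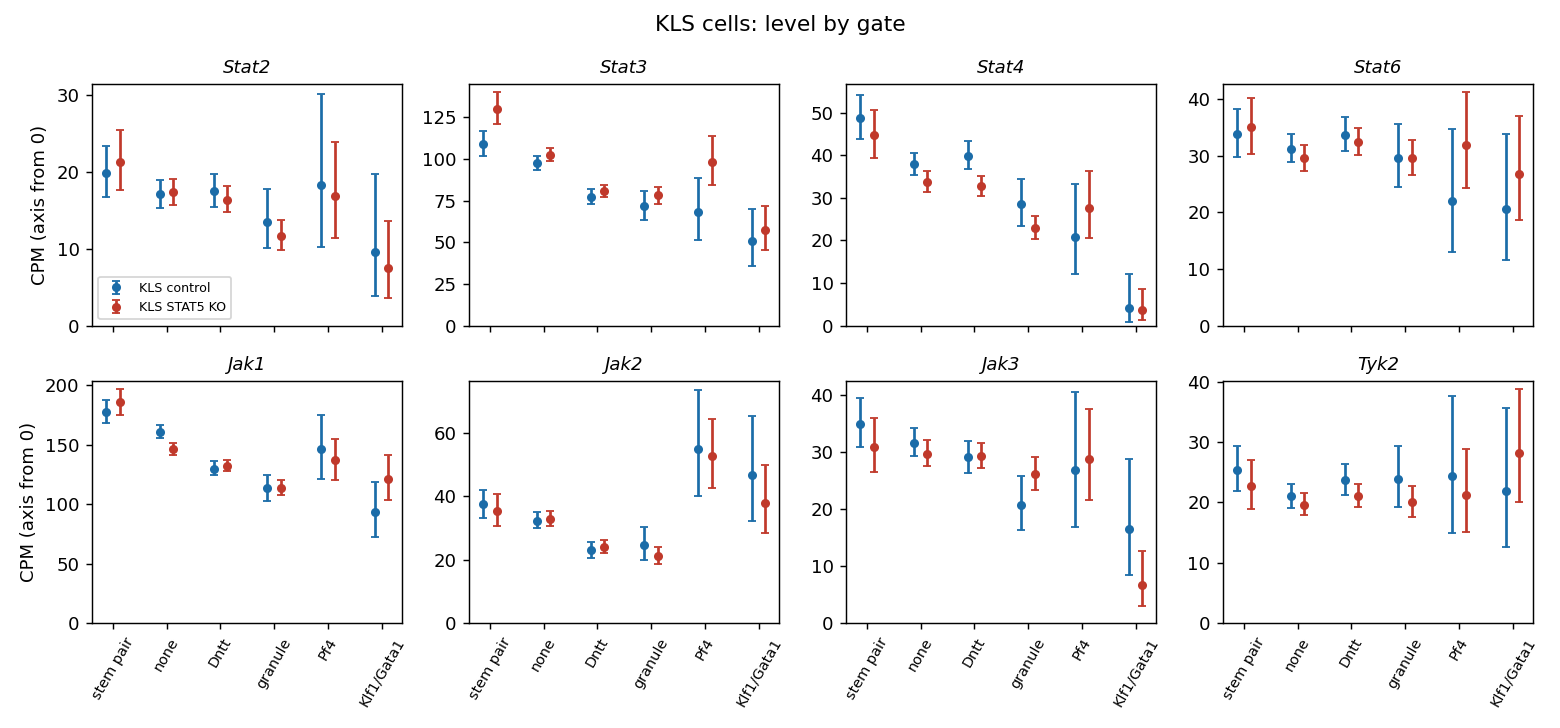
Level of each gene by KLS gate in control (blue) and STAT5 KO (red), as CPM on a linear axis from 0 with 95% counting intervals. Stat3, Stat4 and Jak1 are highest in the stem pair gate and Jak2 in the Pf4 gate, in both genotypes.

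Within gates the genotypes were then compared gene by gene. In the stem pair, Dntt and granule gates and in cells of no gate, 0 of 8 genes passed 1.3-fold in either direction. The background in these comparisons was 8.62% of genes higher and 8.33% lower in the stem pair gate, 5.65% and 8.25% in the Dntt gate, 11.0% and 8.30% in the granule gate, and 5.22% and 6.98% in cells of no gate. In the Pf4 gate 3 of 8 genes were higher and 0 lower, against a background of 20.5% and 12.5%. With gates from all UMIs of a cell, which also used higher thresholds, the 3 genes had log2 ratios of 0.24 (Stat3), 0.042 (Stat4) and 0.44 (Stat6), and Tyk2 had -0.65. In the Klf1/Gata1 gate 6 of the 8 genes had at least 20 UMIs, and of these 0 were higher and 1 lower, against 20.0% and 12.8%. The wide background in these last gates goes with their size of 41 and 31 control cells. For cells of more than 1 gate no background was computed. In them Stat2 and Stat4 were lower past 1.3-fold, with log2 ratios of -0.43 (-0.87 to 0.020) and -0.54 (-0.84 to -0.23). The Stat2 interval includes 0.

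Over all genes and gates, Stat3 in the stem pair gate and in the Pf4 gate gave the 2 ratios above 0 that lay beyond counting error; they are singled out here after their values were seen. The stem pair level was 109 CPM (102 to 117) in control (802 UMIs) and 130.2 CPM (121 to 140.0) in the knockout (739 UMIs), a log2 ratio of 0.26 (0.11 to 0.40). In this gate 16.7% of tested genes had a higher ratio. When gates were drawn on all UMIs of a cell, with Hlf, Mecom and Procr all required, the ratio was 0.16, and under the stricter cell filter it was 0.38. In the Pf4 gate Stat3 stood at 68.3 CPM (51.6 to 88.7) and 98.2 CPM (84.4 to 114), a log2 ratio of 0.52 (0.084 to 0.98) from 56 and 181 UMIs. In the Dntt gate the ratio was 0.059 (-0.049 to 0.17) and in the granule gate 0.12 (-0.074 to 0.32). It was 0.17 (-0.41 to 0.78) in the Klf1/Gata1 gate and 0.074 (-0.012 to 0.16) in cells of no gate. Only in cells of more than 1 gate did it lie below 0, at -0.13 (-0.32 to 0.058). Outside the stem pair and Pf4 gates, each of these intervals includes 0. The Stat5 genes were the least reduced in the stem pair gate, at 21.5 CPM for Stat5a against 76.7 CPM in control, and most reduced in the Dntt gate, at 0.652 CPM against 46.1 CPM.

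Stat4 had ratios below 0 in 5 groups of over 100 control cells. Its log2 ratio was -0.29 (-0.44 to -0.13) in the Dntt gate, -0.17 (-0.31 to -0.021) in cells of no gate, -0.32 (-0.65 to 0.012) in the granule gate, -0.13 (-0.36 to 0.11) in the stem pair gate and -0.54 (-0.84 to -0.23) in cells of more than 1 gate. The stem pair and granule intervals include 0, in the Pf4 gate the ratio was 0.42 (-0.40 to 1.302), and with gates from all UMIs the stem pair ratio was 0.14. Jak1 had a ratio of -0.14 (-0.21 to -0.067) in cells of no gate and 0.028 (-0.055 to 0.11) in the Dntt gate. In cells of more than 1 gate the Jak1 ratio was -0.20 (-0.35 to -0.044). Jak3 had its highest ratio in the granule gate, 0.34 (-0.020 to 0.72), and its lowest in the Klf1/Gata1 gate, -1.299 (-2.73 to 0.072), from 12 and 9 UMIs. Both intervals of Jak3 include 0.

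**Figure D4:**
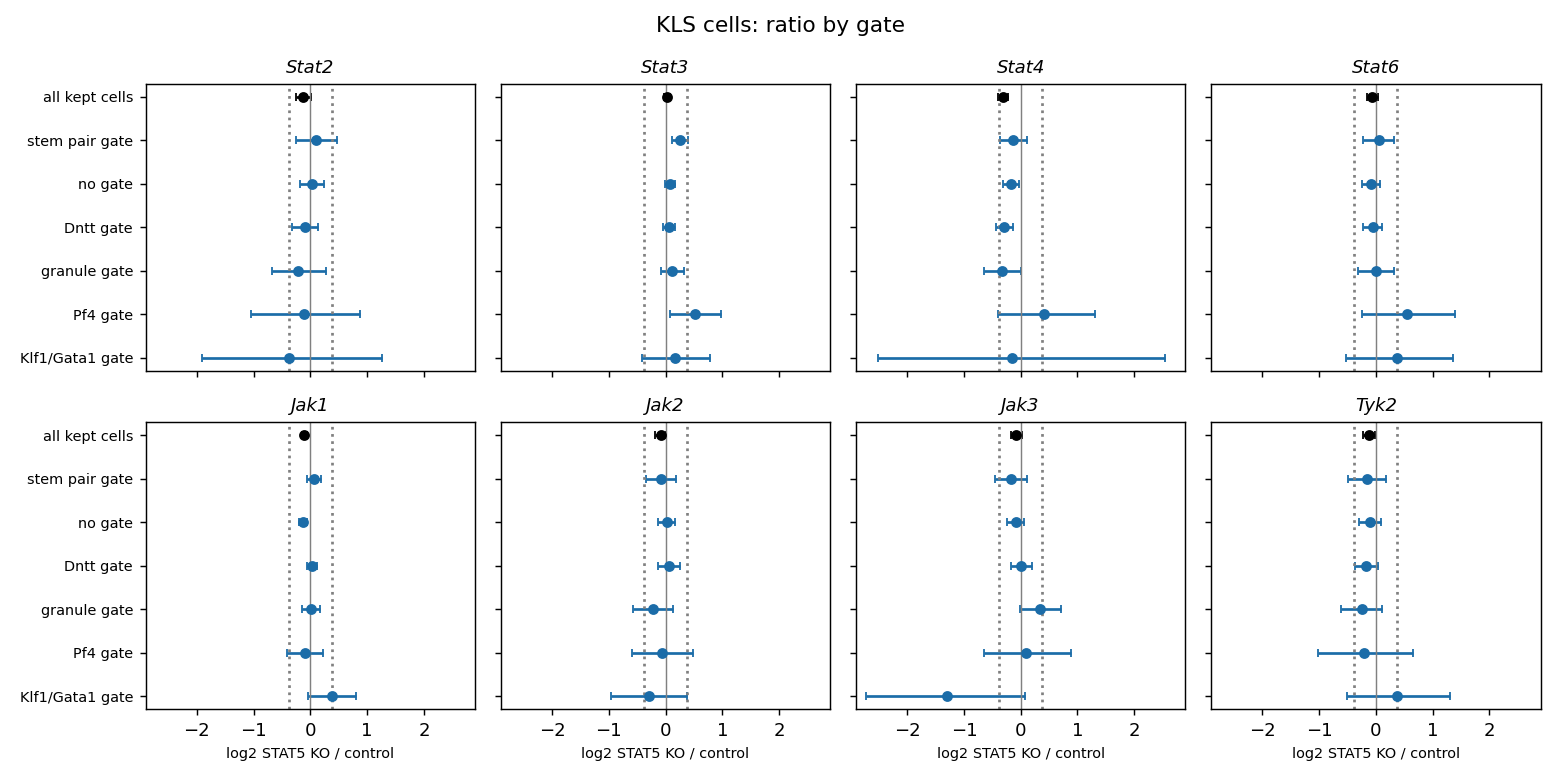
Log2 ratio of STAT5 KO to control for each gene over all kept KLS cells (black) and by gate (blue), with 95% counting intervals; the solid line is no difference and the dotted lines mark 1.3-fold. Points over all cells lie between the dotted lines, and the intervals of Stat3 in the stem pair and Pf4 gates lie above 0.

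Shares of cells with a UMI were compared after thinning to 4000 UMIs per KLS cell, which left 3061 control and 6437 STAT5 KO cells. A Stat3 UMI was found in 30.7% (29.1 to 32.4%) of control and 31.1% (30.0 to 32.3%) of STAT5 KO cells, and a Jak1 UMI in 46.7% (44.9 to 48.4%) and 43.1% (41.8 to 44.3%). Stat4 was found in 15.3% (14.0 to 16.6%) and 12.6% (11.8 to 13.4%), Jak2 in 10.9% (9.86 to 12.1%) and 11.0% (10.2 to 11.7%), and Jak3 in 11.7% (10.5 to 12.9%) and 10.9% (10.1 to 11.7%). Stat6 was found in 12.4% (11.3 to 13.7%) and 11.7% (10.9 to 12.5%), Stat2 in 6.86% (5.99 to 7.81%) and 6.42% (5.83 to 7.04%), and Tyk2 in 8.85% (7.87 to 9.92%) and 8.47% (7.80 to 9.17%). The intervals of the 2 genotypes were apart for Stat4 and Jak1, both lower in STAT5 KO, and overlapped for the other 6. Unthinned shares, at median depths of 15136 and 10085 UMIs over all kept cells, were 68.9% and 58.1% for Stat3 and 43.9% and 28.8% for Stat4. The MSC libraries are separate libraries, so they do not measure free RNA in the KLS libraries. Their cells were thinned to 1000 UMIs, a lower depth than for the KLS cells. For Stat4, a gene of blood cells, 0 of 434 MSC control and 0 of 276 MSC STAT5 KO cells held a UMI. With a limit of 3 counts of the total, this allows shares of up to 0.691% and 1.09%. At 500 UMIs per cell, which keeps the shallower cells, Stat4 was found in 3 of 577 (0.520%) and 0 of 374 cells. At 1000 UMIs Jak3 was found in 0.461% (0.0559 to 1.65%) and 0.725% (0.0879 to 2.59%) of the cells. Without thinning, the 12 and 5 Jak3 UMIs of these libraries all lay in cells that passed the stromal marker rule. Apart from Stat4, no cell type here is known to lack any of the 8 genes.

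The STAT5 KO library still held Stat5 transcripts, which allowed a comparison inside 1 library. Of 6726 cells, 454 held a UMI of Stat5a or Stat5b and 6272 held none; their median depths were 10195 and 10076 UMIs. Stat3 stood at 101 CPM in cells with a Stat5 UMI and 91.1 CPM in cells without, a log2 ratio of 0.15 (0.027 to 0.28). Stat4 stood at 38.5 CPM in cells with a Stat5 UMI and 30.7 CPM in cells without, a ratio of 0.33 (0.12 to 0.53). Stat6 stood at 24.5 CPM in cells with a Stat5 UMI and 31.5 CPM in cells without, a ratio of -0.36 (-0.62 to -0.11). Stat4 was higher, and Stat6 lower, in the cells that kept a Stat5 UMI, beyond counting error. When at least 2 Stat5 UMIs were asked for (229 cells), the ratio of Stat4 was 0.18 (-0.11 to 0.44), which includes 0, that of Stat6 -0.36 (-0.69 to -0.041) and that of Stat3 0.024 (-0.14 to 0.19). The same split of control cells, 2446 with and 639 without a Stat5 UMI, gave -0.21 (-0.39 to -0.035) for Stat4, -0.16 (-0.35 to 0.039) for Stat6 and -0.075 (-0.19 to 0.044) for Stat3. Here the cells with a Stat5 UMI were deeper, at medians of 16751 against 9623 UMIs, and with control cells thinned to 4000 UMIs before the split the ratio of Stat4 was -0.033 (-0.29 to 0.22).

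These differences were uneven over gates. For Stat6 the ratio of cells with to cells without a Stat5 UMI was -0.76 (-1.21 to -0.34) among STAT5 KO cells of no gate and -0.97 (-1.93 to -0.15) in the granule gate, but -0.10 (-0.69 to 0.45) in the stem pair gate, which held 113 of the 454 cells. For Stat4 it was 0.27 (-0.20 to 0.72) in the stem pair gate and 0.28 (-0.027 to 0.58) in cells of no gate. In the Pf4 gate, with 20 cells holding a Stat5 UMI, the Stat4 ratio was 1.14 (0.17 to 2.05), and in cells of more than 1 gate -0.18 (-1.26 to 0.73). With cells thinned to 4000 UMIs before the split, 243 cells held a Stat5 UMI, and the ratio was 0.61 (0.16 to 1.03) for Stat4 and -0.068 (-0.66 to 0.47) for Stat6. The ratios of Stat3, Jak1 and Jak2 lay above 0 over all cells, with 0.11 (0.0073 to 0.21) for Jak1 and 0.23 (0.00049 to 0.44) for Jak2. With at least 2 Stat5 UMIs the ratios of Jak1 and Jak2 were 0.0026 (-0.13 to 0.14) and 0.17 (-0.13 to 0.45), and all 3 genes changed sign in several single gates. Jak1 went both ways beyond counting error, at 0.39 (0.17 to 0.60) in the stem pair gate and -0.36 (-0.73 to -0.012) in the granule gate.

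In the MSC libraries Stat5a and Stat5b were not lower in STAT5 KO beyond counting error, at 0.46 (-0.045 to 0.97) and -0.10 (-0.61 to 0.40). Of the 8 genes 6 had at least 20 UMIs over both libraries. Of these, 1 was higher and 1 lower past 1.3-fold, against a background of 15.5% of 10155 genes higher and 22.6% lower. The median log2 ratio of the 6 was 0.21, and that of all tested genes was -0.065. In the cells that passed the stromal marker rule, where the erythroid sums were alike, 1 of 6 was higher and 1 lower, against 14.1% and 27.4% of 9667 genes.

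Stat6 was the lower gene, at 46.2 CPM (36.7 to 57.4) in MSC control and 30.9 CPM (21.7 to 42.5) in MSC STAT5 KO from 81 and 37 UMIs, a log2 ratio of -0.58 (-1.19 to -0.0049). Averaging the CPM of single cells gave -0.045 for it, and -0.56 for Jak2, whose ratio of summed counts was 0.22 (-0.31 to 0.73). Tyk2 was the higher gene, at 11.4 CPM (6.97 to 17.6) and 15.8 CPM (9.54 to 24.7) from 20 and 19 UMIs, and its ratio of 0.47 (-0.51 to 1.45) lay within counting error. Stat3 stood at 189 CPM (169 to 210.3) and 228 CPM (202 to 257), a ratio of 0.27 (0.039 to 0.51) that excludes 0 narrowly. Jak1 stood at 204 CPM (183 to 226) and 198 CPM (174 to 225), Jak2 at 41.6 CPM (32.6 to 52.4) and 48.4 CPM (36.7 to 62.5), and Stat2 at 28.0 CPM (20.7 to 37.0) and 32.5 CPM (23.1 to 44.5); these 3 did not differ beyond counting error. Stat4 had 3 and 2 UMIs and Jak3 12 and 5 UMIs, too few to compare. Between the sorts, in control mice, Stat2, Stat3, Stat6, Jak1 and Jak2 were higher in MSC than in KLS cells, and Stat4, Jak3 and Tyk2 were lower. For each of these genes the intervals of the sorts do not overlap, though those of Jak2 lie close together.

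Transcripts that these factors are known to act on were read from lists, which were chosen with earlier results of these data known. The list counts are therefore descriptions, and which factor acts on a listed gene in these cells was not tested. Of 14 interferon targets, the genes that the STAT2 complex with IRF9 switches on, 10 were at least 1.3-fold lower in STAT5 KO KLS cells and 0 higher, beside the 7.04% of all genes that were lower. Their median log2 ratio was -0.77. Other measures differed between the KLS libraries too: the erythroid markers went from 41.0 to 69.4 CPM (26.3 to 81.0 CPM in the Dntt gate, 63.0 to 53.4 CPM in the stem pair gate), and the median mitochondrial share of a cell from 4.44% to 2.91%. Their part in the lower interferon targets was not tested. Ifit1, which binds viral RNA, went from 14.8 to 5.73 CPM, a log2 ratio of -1.36 (-1.54 to -1.19). Ifi27l2a went from 43.7 to 19.4 CPM, a ratio of -1.17 (-1.27 to -1.07), and Irf7, the factor that amplifies interferon production, from 23.9 to 12.2 CPM, a ratio of -0.97 (-1.09 to -0.84). Oasl2 went from 48.3 to 25.7 CPM, Rtp4 from 58.2 to 31.9 CPM, Isg15 from 31.8 to 19.4 CPM, Rsad2 from 14.4 to 7.00 CPM and Ifit3 from 1.74 to 0.432 CPM. Usp18, which turns the type I interferon receptor off, and Mx1 complete the 10. Irf9 itself went from 52.4 to 43.6 CPM, a ratio of -0.27 (-0.34 to -0.19). It stayed within the fold rule, as did Bst2 at 0.12 (0.079 to 0.17), Xaf1 at 0.032 (-0.053 to 0.12) and Ifit2 at -0.12 (-0.27 to 0.039). Beside these, Stat2 stood at 91.8% (84.2 to 100.2%) of control.

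The lower interferon targets were found in every gate. Past 1.3-fold and lower were 10 of 14 measured targets in the Dntt gate, 8 of 12 in the stem pair gate, 7 of 12 in the granule gate, 9 of 14 in cells of no gate, 7 of 11 in the Pf4 gate and 6 of 10 in the Klf1/Gata1 gate; those higher were 0 in the first 4 and 1 in each of the last 2. After weighting to the gate mix of control the count was again 10. Per cell thinned to 4000 UMIs, the 14 genes together had a mean of 2.03 UMIs in control and 1.55 in STAT5 KO. At least 5 such UMIs were held by 10.5% (9.45 to 11.7%) of control and 4.60% (4.10 to 5.14%) of STAT5 KO cells, and at least 10 by 1.83% (1.38 to 2.37%) and 0.513% (0.353 to 0.719%).

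**Figure D5:**
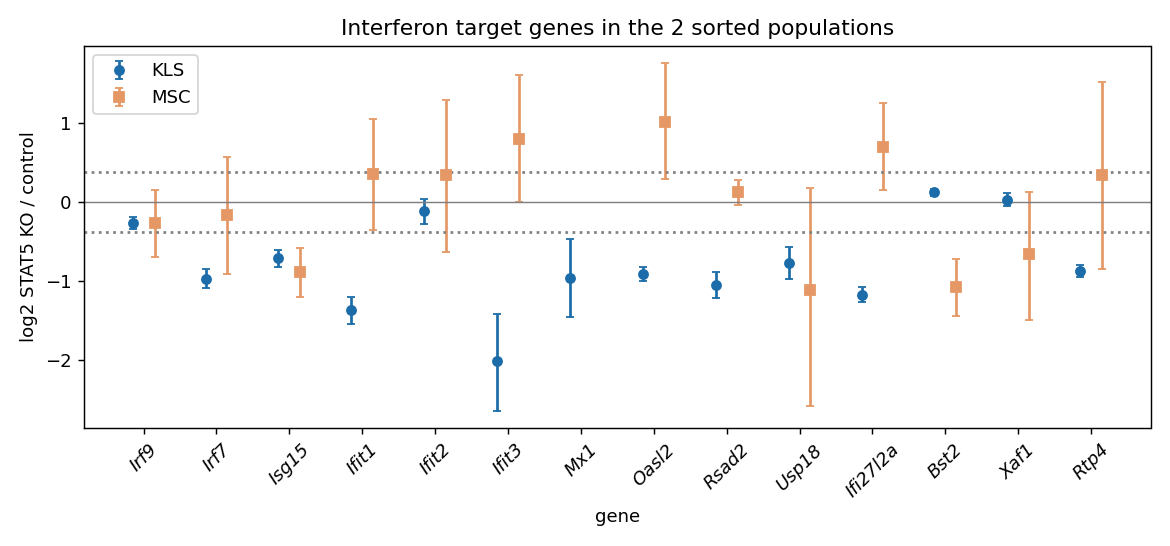
Log2 ratio of STAT5 KO to control for the 14 interferon targets in KLS cells (circles) and MSC cells (squares), with 95% counting intervals and dotted lines at 1.3-fold; a gene with under 20 UMIs in a sort is not drawn. In KLS cells 10 genes lie below the lower dotted line, and in MSC cells genes lie on both sides.

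Promoters of 3 lower targets and of the 2 family genes with a match are shown because the STAT2 complex with IRF9 binds a repeat of GAAA, seen on the other strand as TTTC. The 250 bases upstream of each RefSeq start (GRCm38.p6) were searched on both strands for TTTC, any 2 bases and TTTC again, with overlapping matches allowed. It occurred in 2.98% of all 32851 promoters, and in 5 of the 10 interferon targets with a promoter entry: Ifit1, Ifit3, Isg15, Rsad2 and Bst2. Of the 8 family genes, all with an entry, Stat2 and Stat4 had a match. Stat4 has 2 RefSeq starts; the match lies before the second, inside the annotated gene, and the window before the first, at the start of the annotated gene, has 0 matches. The windows below run 5′ to 3′ on the strand of the gene, with matches in capitals.
Ifit1 (chr19:34640765-34640833, plus strand): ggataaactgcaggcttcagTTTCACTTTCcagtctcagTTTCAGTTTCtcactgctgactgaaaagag
Isg15 (chr4:156200855-156200916, minus strand): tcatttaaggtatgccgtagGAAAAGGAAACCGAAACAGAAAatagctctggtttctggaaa
Rsad2 (chr12:26456543-26456592, minus strand): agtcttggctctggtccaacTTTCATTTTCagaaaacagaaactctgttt
Stat4 (chr1:52008123-52008172, plus strand): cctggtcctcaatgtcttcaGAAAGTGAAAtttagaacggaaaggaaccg
Stat2 (chr10:128270256-128270305, plus strand): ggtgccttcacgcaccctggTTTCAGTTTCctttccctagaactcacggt
The Isg15 capitals hold 3 overlapping matches, and Ifit1 has 2 matches apart. The site that STAT5 and most other STATs bind, TTCNNNGAA, reads the same on both strands and occurred in 7.02% of promoters and in 0 of the 8 family genes. A match is a description of letters and no evidence of binding, and no match says only that these letters are not in this window.

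Of 12 STAT3 targets 1 was higher past 1.3-fold in STAT5 KO KLS cells and 0 lower, beside a background of 3.61% and 7.04%, and their median log2 ratio was 0.066. The gene was Socs3, the feedback inhibitor of gp130 signaling, which went from 9.07 to 14.2 CPM, a ratio of 0.64 (0.49 to 0.80). Bcl3 went from 9.50 to 12.6 CPM, a ratio of 0.41 (0.25 to 0.57), and lay just inside the rule with the pseudocount. Both were higher in the granule gate, where Socs3 went from 6.62 to 19.6 CPM and Bcl3 from 5.56 to 12.1 CPM, with ratios of 1.57 (0.97 to 2.22) and 1.13 (0.46 to 1.86). In the stem pair gate Socs3 went from 10.5 to 16.7 CPM and Bcl3 from 9.10 to 14.3 CPM. Stat3 itself had log2 ratios of 0.12 (-0.074 to 0.32) in the granule gate and 0.26 (0.11 to 0.40) in the stem pair gate. A link between Stat3 and these 2 genes was not tested. In the granule gate 5 of 12 STAT3 targets were higher and 0 lower, and in the stem pair gate 3 of 12 and 0. In the Pf4 gate 3 of 9 were higher and 4 lower, and in the Klf1/Gata1 gate 4 of 8 and 1. The Dntt gate and cells of no gate each had 1 of 12 higher and 0 lower. Median log2 ratios were 0.28 (granule), 0.030 (stem pair), -0.19 (Pf4), 0.39 (Klf1/Gata1), -0.013 (Dntt) and 0.037 (no gate). These counts stand beside the backgrounds of these gates given above.

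The other lists stand beside the background of 3.61% of all genes higher and 7.04% lower, which the receptor counts did not leave. In KLS cells 27 of 31 cytokine receptor genes were measured, of which 0 were higher and 2 lower, with a median of -0.034. The 2 were Il7r, the interleukin-7 receptor, from 13.1 to 7.02 CPM, and Il2rg, the common gamma chain, from 59.9 to 45.3 CPM. Their ratios were -0.90 (-1.07 to -0.73) and -0.40 (-0.47 to -0.33). Of 20 negative regulators 1 was higher and 3 lower, with a median of -0.042. Socs3 was the higher one, and Cish, a feedback gene of STAT5, went from 13.8 to 6.01 CPM, Socs1 from 10.6 to 7.29 CPM and Usp18 from 8.80 to 5.17 CPM. Of 10 STAT4 and STAT6 targets 5 were measured, of which 0 were higher and 1, Socs1, lower. Beside these, Jak2 stood at 94.1% (88.1 to 100.5%) of control.

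The genes most like each member over the KLS gates were named from the correlation of log2(CPM + 1) over 14 points, 7 gates in 2 libraries, among 9807 genes. The points of a library share its preparation and depth, so these values are descriptions. Stat4 was most like Zfp608 (Pearson r 0.99), Tmem176a (0.98) and Celf2 (0.98), and Stat3 most like Hoxb4 (0.97), a homeobox gene of stem cells, Crispld1 and Phf20l1. Jak2 was most like Nt5c3 (0.98), Fbxo9 (0.97) and Gp9 (0.96), a platelet receptor subunit. Stat2 was most like Gabbr1, Card19 and Thap3, Stat6 like Cdadc1, Fbrs and P2rx4, Jak1 like Lrif1, Amn1 and Galc, and Jak3 like Pptc7, Zfp275 and Pde4dip, all with r from 0.95 to 0.98. Tyk2 had no close match, with r of 0.75 for Gm20186, 0.74 for Mat2b and 0.74 for Prune1.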

How the data were processed

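The deposited matrices hold raw counts of UMIs per gene and cell barcode, made by the authors with Cell Ranger per the submitters' processing notes, with software version 3.1.0 per the file headers and builds GRCm38 and mm10 per the notes. Strand rule and cell calling are not given in the sources used here. Barcodes with fewer than 200 genes or over 10% mitochondrial UMIs were dropped. The highest Scrublet scores (scanpy 1.11.5) were left out at 0.8% of barcodes per 1000 barcodes, and so were barcodes that held more UMIs in another library. No correction for free RNA was made. Counts were summed and scaled to CPM. Sums carry exact Poisson, shares exact Clopper-Pearson and ratios exact conditional binomial intervals, at 95%. Gates used each cell thinned to 4000 UMIs: Dntt at least 1, Pf4 at least 2, Klf1 plus Gata1 at least 2, granule genes at least 10. The alternative gates from all UMIs of a cell used higher thresholds for every gate. They depend on depth, which differed between the KLS libraries. In MSC libraries, cells with at least 10% hemoglobin UMIs were called hemoglobin-rich, and others with at least 1% of UMIs from 10 stromal markers passed the stromal marker rule. Ratios over all genes used genes with at least 20 UMIs, a pseudocount of 1 CPM and a fold of 1.3. Ratio steps were tested on simulated data with known folds and counting error only. In the KLS comparison (13976 genes) the direction of 98.0% of 100 genes changed 1.5-fold and 100.0% of 100 changed 2-fold was recovered. In the MSC comparison (10155 genes) these shares were 94.0% and 99.0%. Only the direction of the changed genes was scored, so the 1.3-fold rule was not checked. Alternatives used edgeR 4.0.16 TMM factors among others. Named list genes were those past the fold with at least 100 UMIs, at most 8 per list and direction in KLS; Bcl3, Irf9, Bst2, Xaf1, Ifit2 and Mx1 were named after their values were seen. Members and lists were chosen with earlier results of these data known. Gene coordinates are those of GENCODE M21. Other genes of the 2 families are not analysed here, and 1 gene of the receptor list is not reported here. Python 3.11.15, numpy 2.4.6, scipy 1.17.1 and R 4.3.3 were used.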

Additional observations from a re-analysis of the deposited data

Results flagged for a closer look

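For 7 genes of the pathway lists the STAT5 KO to control log2 ratio lay on opposite sides of 0 in the 2 sorted populations, each beyond counting error. With 1 library per group the difference between the populations was not tested. The share of all genes with such opposite ratios was not computed, so the count of 7 is no result about the lists. Among interferon targets, Oasl2 was at -0.91 (-0.998 to -0.83) in KLS and 1.01 (0.29 to 1.75) in MSC cells, Ifi27l2a at -1.17 (-1.27 to -1.07) and 0.70 (0.15 to 1.25), and Ifit3 at -2.01 (-2.63 to -1.42) and 0.80 (0.0019 to 1.61). Bst2 ran the other way, at 0.12 (0.079 to 0.17) in KLS and -1.07 (-1.44 to -0.72) in MSC cells. Smaller opposite ratios were found for Mcl1, a survival gene, at -0.13 (-0.17 to -0.093) and 0.29 (0.099 to 0.47), for Cebpb at -0.069 (-0.14 to -0.0010) and 0.26 (0.12 to 0.40), and for Pias1 at -0.089 (-0.16 to -0.022) and 0.53 (0.026 to 1.03). None of the 8 STAT and JAK genes of the report showed this pattern.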

How the results depend on the processing

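In KLS cells the count of STAT and JAK genes past the fold rule stayed at 0 higher and 0 lower under every cell filter, scaling, averaging and weighting tried and with pseudocounts of 0 and 10 CPM; with a fold of 1.2 it was 1 lower (Stat4). In MSC cells the 1 higher gene became 0 with the mean of single-cell CPM, with a fold of 1.5 and with a pseudocount of 10 CPM, and 2 with a fold of 1.2, and the 1 lower gene, Stat6, became 0 with a fold of 1.5; with the mean of single-cell CPM the 1 lower gene was Jak2 (-0.56) and no longer Stat6 (-0.045). The 10 lower interferon targets ranged from 7 (pseudocount of 10 CPM) to 10; in MSC cells 3 interferon targets were higher, and 8 with the mean of single-cell CPM. The 2 lower cytokine receptors in KLS cells became 1 under the stricter cell filter, the gate weighting, a fold of 1.5 and a pseudocount of 10 CPM, and 5 with a fold of 1.2. Stat3 over all KLS cells went from -0.014 without mitochondrial, ribosomal protein, hemoglobin and immunoglobulin genes in the total to 0.10 with the gate weighting. Ratios of STAT5 KO cells with to cells without a Stat5 UMI changed sign in single gates: Stat3 was -0.017 (Dntt), -0.52 (Pf4) and -0.080 (no gate), Jak1 was -0.042 (Pf4), -0.36 (granule), -0.051 (more than 1 gate) and -0.085 (no gate), Jak2 was -0.88 (Pf4), -0.71 (Klf1/Gata1), -0.22 (granule) and -0.065 (stem pair), Stat4 was -0.18 (more than 1 gate), and Stat6 was 0.45 (Klf1/Gata1) and 0.76 (more than 1 gate). The cause was not tested. The control library split and the alternatives for the list counts were chosen after the data were seen. No paired analysis was possible because each group has 1 library. The MSC values rest on few UMIs, and the Pf4 and Klf1/Gata1 gates on 41 and 31 control cells.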

Other observations

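In MSC cells 2 of 19 measured cytokine receptors were higher and 4 lower past the fold, near or below the 15.5% and 22.6% of all genes, so the counts are no result about the list. Il6st, the gp130 subunit that signals through STAT3, went from 230.5 to 168 CPM, a log2 ratio of -0.46 (-0.71 to -0.21), Lepr, the leptin receptor, from 478 to 319 CPM, a log2 ratio of -0.59 (-0.76 to -0.41), and Ifngr2, a chain of the interferon gamma receptor, from 51.3 to 34.2 CPM, a log2 ratio of -0.59 (-1.16 to -0.039), while Osmr, the oncostatin M receptor, went from 83.3 to 116 CPM, a log2 ratio of 0.48 (0.13 to 0.82). Stromal markers differed in the same libraries, with Cxcl12 at 6759 and 4103 CPM, Col1a1 at 6997 and 5119 CPM and Ly6a at 601 and 410.3 CPM, while the 10 stromal markers summed to 40789 and 41392 CPM. Their part in the receptor values was not tested. Of 12 STAT3 targets 1 was higher, Hif1a, from 86.7 to 140.1 CPM, a log2 ratio of 0.69 (0.37 to 1.02), and 0 lower. Of 13 interferon targets 3 were higher and 4 lower.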
